A study of Sus scrofa with 6 samples.

Results

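Baseline neonatal pig Sertoli cells (NPSC) are the untreated arm of a study of how pig Sertoli cells respond to human complement, and the 3 baseline libraries of its 6 libraries are described here on their own. Of 25149 genes listed in the deposited count files, the 16053 with 10 or more counts in all 3 baseline libraries were kept, and they were ranked by their mean TPM (a transcript level, the count divided by the exon length and scaled so that each library sums to 1000000). A symbol was matched to 10691 of these genes, and the other 5362 had no symbol in the table of names used here and are given by their Ensembl identifiers.

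The cells came from wild-type (WT) Duroc-Landrace pigs of 3 to 5 days of age. Testes of 3 litters of 4 males were minced, digested with collagenase and trypsin and filtered, and no sort for a cell type is described, so other testis cells can be in the preparation. NPSC were grown overnight as a monolayer in DMEM, a standard culture medium, with 10% fetal bovine serum at 37 °C and 5% CO2. In the baseline arm a portion of this medium was then replaced by DMEM without human serum for 90 min, before the plates were rinsed and lysed in Trizol. Each library came from 1 plate. Whether each plate held the cells of its own litter is not stated, so the spread given below is the spread between plates and may be partly technical.

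Sertoli cells are the somatic cells of the seminiferous tubule. They enclose and nourish the germ cells, join each other through the tight junctions of the blood-testis barrier, secrete inhibin and anti-Müllerian hormone, and are studied in transplantation because they survive in foreign hosts. In the intact neonatal testis they lie beside peritubular myoid cells, a contractile layer around the tubule, and the interstitium outside holds Leydig cells, which make androgen and insulin-like 3, together with vessels, fibroblasts and macrophages.

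The library totals were 6796183, 7160346 and 8371923 counts in plates 1, 2 and 3, and the kept genes held 99.4%, 99.6% and 99.7% of them. Counts on 47 olfactory receptor genes, which serve smell and are taken here as a gauge of counts that do not come from an active gene, stood at 2.20, 1.23 and 1.21 counts per 1000000 of the library (CPM) per kilobase of exon. Scaled to TPM this background was 3.08, 1.66 and 1.61, so it was highest in plate 1. A second gauge, 23 genes of the taste receptors and of tissues such as liver, pancreas and retina, was higher, at 6.92, 3.89 and 2.80 TPM. Unless the second gauge is named, background below means that of the olfactory receptors. Of the olfactory receptors, 14 themselves passed the minimum of 10 counts. Passing the minimum therefore does not by itself show that a gene was expressed. Of the kept genes, 10973 (68.4%) lay above 3 times this background in every plate, and 888 lay at or below it in at least 1 plate. Only 6331 (39.4%) lay above 3 times the second gauge in every plate. The counts of list genes above background given below are to be read against these shares. A further limit is that all 2451 genes on unplaced scaffolds of the files' unnamed genome build were listed at 0 in every baseline library, and so were 1167 of 22698 genes on chromosomes or mitochondrial DNA. A 0 on a scaffold is thus not a level, and genes such as CYP11A1, MYH11, COL6A1, IGF1R and EGFR, all on scaffolds, were not measured. Of the 1167 placed genes at 0, 190 had 1000 bp or more of exon. Whether a 0 of a placed gene is a low level was not tested.

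The median kept gene stood at 13.9 TPM. A mean of 1 TPM or more was reached by 16018 genes, 10 TPM or more by 10077, 100 TPM or more by 882 and 1000 TPM or more by 55. At the edge of the selection lay short RNA genes. The microRNA genes ssc-mir-421 and ssc-mir-18a had 10 counts in their lowest library and 19, 10 and 20 or 18, 10 and 21 counts over the plates, and the small nucleolar RNA gene SNORD79 had 14, 10 and 10. Just outside, ssc-mir-425 had 10, 10 and 9 counts, SNORA12 had 15, 9 and 24, and C13orf46 had 43, 36 and 9.

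The library was concentrated in few genes. The single most abundant gene held 20.03% ± 0.697 of the TPM (SD, n = 3 plates), the first 3 held 30.9% ± 1.57, the first 30 held 45.7% ± 1.61 and the first 1000 held 68.8% ± 2.51. In all, 66 genes made up 50% of the TPM. Ranked by counts instead, without division by exon length, the first 30 genes held 21.4% ± 0.912 of the counts, and 826 genes were needed for 50%. Of the 30 most abundant genes, 24 were among the first 30 in every plate. They comprised 13 genes of mitochondrial DNA, 6 named nuclear genes and 11 nuclear genes without a symbol, 9 of which had under 400 bp of exon.

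**Figure D1:**
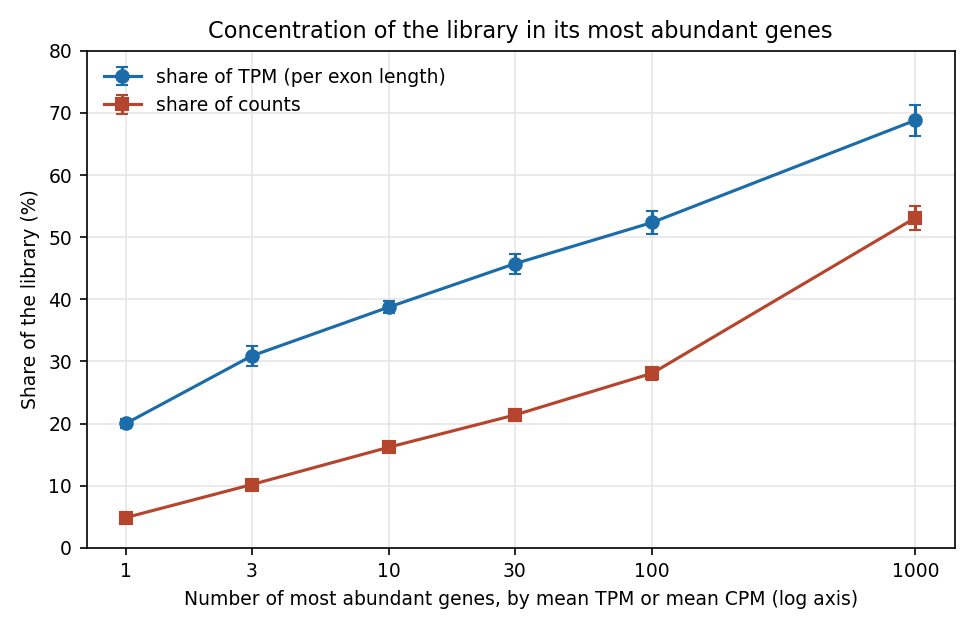
Share of the library (%) held by the 1, 3, 10, 30, 100 and 1000 most abundant genes (log axis), ranked by mean TPM for the share of TPM and by mean CPM for the share of counts, as mean ± SD of 3 plates. The share of TPM starts at 20.03% for 1 gene, while the share of counts starts at 4.88%, and both reach more than 50% by 1000 genes.

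The 3 genes at the head of the list had no symbol. ENSSSCG00000019556, a 331 bp gene at chr7:134400749-134401079 (coordinates of the files' build), stood at 196301, 196273 and 208366 TPM, nearly the same in every plate. ENSSSCG00000018700 (258 bp, chr1:264105054-264105311) stood at 67348, 53157 and 60697 TPM, and ENSSSCG00000020439 (328 bp, chr7:83579873-83580200) at 37786, 48723 and 57792 TPM. Their nearest named neighbours, by distance alone, were GSTA4 at 240 bp, CCDC107 at 369 bp and PARP2 at 147 bp. What kind of RNA they encode is not given in the sources used here. A short exon length raises TPM for a given count, yet these genes also had ranks 1, 5 and 4 by counts, with 315523 to 434176 counts for the first. Together, the kept genes without a symbol and under 400 bp numbered 613, and all listed genes of that kind held 39.6% of the TPM and 8.28% of the counts. The other genes without a symbol among the first 30 were ENSSSCG00000004489 at 3371 ± 663 TPM, ENSSSCG00000006558 at 3101 ± 377, ENSSSCG00000017581 at 2347 ± 644, ENSSSCG00000029605 at 1868 ± 232 and ENSSSCG00000014540 at 1811 ± 244. The study names ENSSSCG00000029605 as ATG10, a symbol that the table of names used here does not give. In these files it is a 297 bp model on chromosome 1, with NEMF as the nearest named neighbour at 792 bp. Whether it is ATG10 was not tested.

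A cluster of 3 shorter genes lay between ACSF3 and CDH15 on chromosome 6. ENSSSCG00000021356, 57 bp long, stood at 7139, 17292 and 15709.5 TPM, ENSSSCG00000025162, 69 bp, at 2459, 7442 and 7454, and ENSSSCG00000024853, 106 bp, at 1879, 2670.4 and 4253. All 3 were lowest in plate 1, by ratios of 2.42, 3.03 and 2.26 between the highest and the lowest plate. The gene models are shorter than a sequencing read, so their TPM is an uncertain measure.

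Mitochondrial transcripts formed the next block. The 13 genes of this kind among the first 30 encode subunits of respiratory chain complex I (ND1 to ND6 and ND4L), complex III (CYTB), cytochrome c oxidase (COX1, COX2 and COX3) and ATP synthase (ATP6 and ATP8). COX1 was the highest at 23278, 21822 and 17483 TPM, followed by COX3 at 14852, 17324 and 10540.3 TPM. ATP8 and COX2 stood at 8323 ± 2861 and 7964 ± 2149 TPM (SD, n = 3), and the lowest of the 13, ND3, at 2048 ± 557 TPM. Within complex I, ND5 was at 5426 ± 1082 TPM, ND4 at 4346 ± 1233 and ND2 at 2778 ± 1109. As a class, the genes of mitochondrial DNA held 9.59%, 11.1% and 6.92% of the TPM, and plate 3 was the lowest for 23 of the 26 that lay above 3 times the background. Over all 10973 genes above that background, the lowest plate was plate 1 for 23.8%, plate 2 for 35.7% and plate 3 for 40.5%, and the highest was plate 1 for 54.4%, plate 2 for 20.8% and plate 3 for 24.9%. These shares depend on the scaling. With the TMM scaling of edgeR, which lowered plate 1 by a median of 0.15 on the log2 scale, plate 1 was the lowest for 47.0% and the highest for 31.3%, plate 2 the lowest for 27.3% and the highest for 26.5%, and plate 3 the lowest for 25.8% and the highest for 42.2%, so the plate counts of the lists below are of TPM. The nuclear genes of oxidative phosphorylation did not share this order. For those, plate 3 was the highest in 26 of 37 (24.9% over all genes above 3 times background), and their summed level was 2727, 2645 and 3139 TPM.

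**Figure D2:**
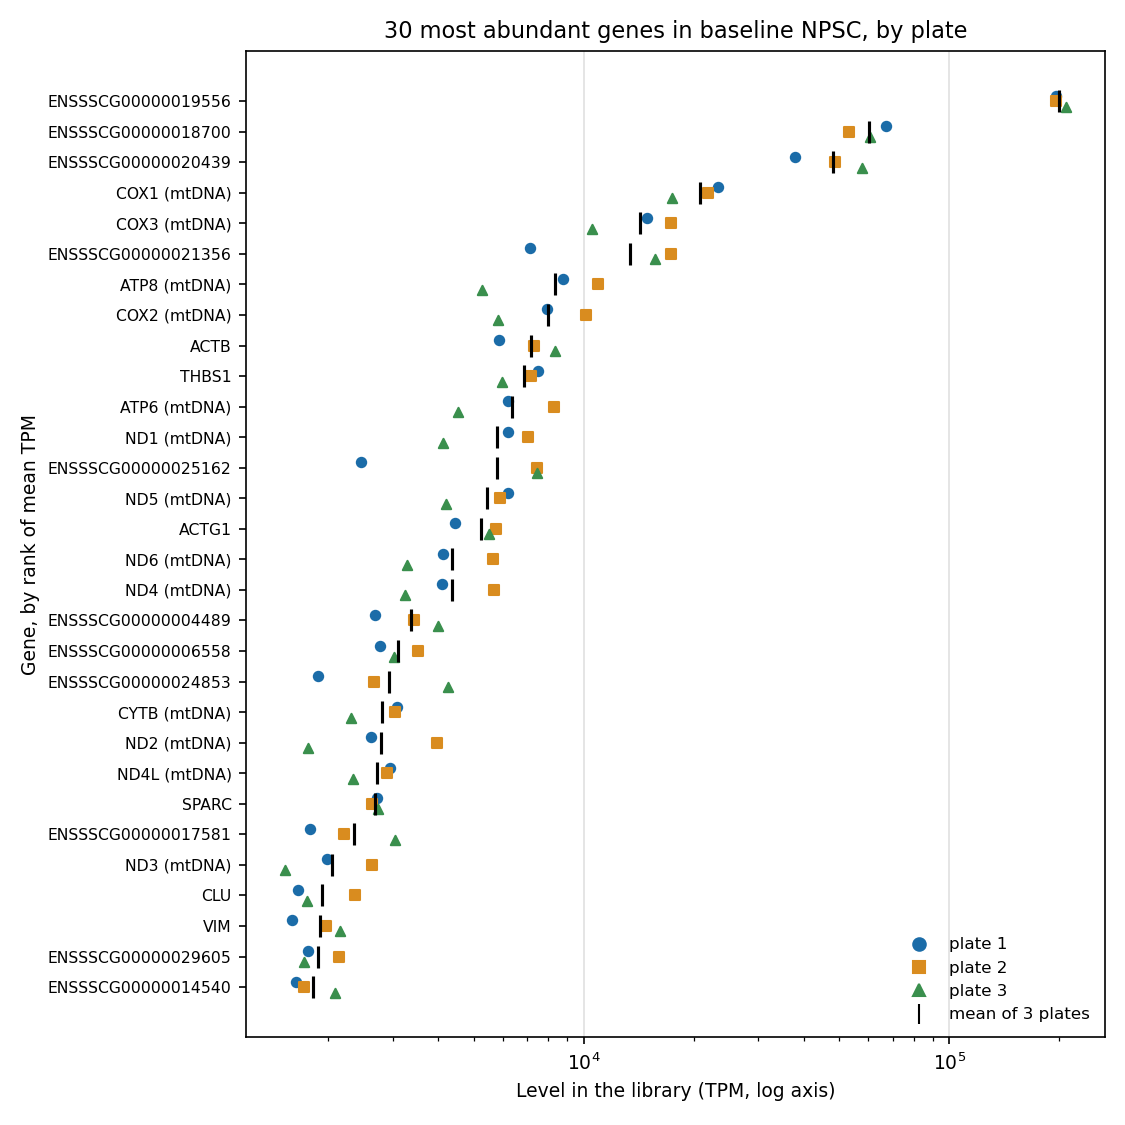
TPM (log axis) of the 30 genes with the highest mean in baseline NPSC, 1 row a gene, with a point for each of 3 plates and a bar at the mean. ENSSSCG00000019556 stands alone near 200313 TPM, the 13 mitochondrial genes (mtDNA) are mostly lowest in plate 3, and ACTB, THBS1, ACTG1, SPARC, CLU and VIM are the named nuclear genes.

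Among named nuclear genes, those of the cytoskeleton and of the matrix led. Beta-actin, ACTB, was at 5868, 7306 and 8345 TPM, lowest in plate 1 and highest in plate 3. THBS1, which encodes the matricellular protein thrombospondin 1, was at 7474, 7156 and 5966 TPM, in the opposite order, although with TMM scaling its highest plate was plate 2. With a long exon sequence of 5818 bp, THBS1 was the second gene of the library by counts, at 211149, 220614 and 218520. ACTG1 (gamma-actin), SPARC (a collagen-binding matrix protein), CLU (clusterin, a secreted chaperone of Sertoli cells that also restrains complement) and VIM (vimentin) completed the first 30, at 5233 ± 699, 2690.0 ± 51.1, 1923 ± 386 and 1901 ± 288 TPM. The SPARC model in these files covers 465 bp of exon, so its TPM rests on a short stretch, and by CPM it ranked 59.

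The cytoskeleton list, 21 kept genes all above 3 times background, summed to 23700.4 ± 3069 TPM, and plate 3 was the highest for 17 of them, against 24.9% of all genes above that background. Next in it after these actins and vimentin was TMSB4X, an actin-binding thymosin, at 1250.3 ± 215 TPM. Others were the tubulins TUBB at 1219 ± 67.6 and TUBA1B at 954 ± 60.2 and the alpha-actinin ACTN4 at 699.9 ± 32.6. KRT8, a keratin of simple epithelia, was far lower, at 64.9, 40.0 and 81.9 TPM, and its partner KRT18 was at 17.4, 11.9 and 16.7.

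All 24 measured genes of the extracellular matrix list lay above 3 times background. Their sum was 14410.5, 13956 and 13792 TPM, most of it from THBS1 and SPARC, while plate 3 was the highest for 16 of the 24 genes (24.9% over all genes above 3 times background). After THBS1 and SPARC came COL3A1, a fibrillar collagen, at 489.6, 520.2 and 695 TPM, fibronectin (FN1) at 512, 417 and 568, and the proteoglycan biglycan (BGN) at 440.3, 467 and 456. Basement membrane genes were present throughout, with perlecan (HSPG2) at 347 ± 24.3 TPM, COL4A2 at 332 ± 68.3, nidogen 2 (NID2) at 226 ± 29.9, and the laminin chains LAMB1 at 204 ± 12.8 and LAMC1 at 181 ± 12.2. BGN and the laminin chains varied little between plates, while COL1A2, at 318, 386 and 573 TPM, was 1.80 times as high in plate 3 as in plate 1.

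The 29 cytosolic ribosomal protein genes with a symbol summed to 11423, 13350 and 15192 TPM, and of the 28 above 3 times background plate 1 was the lowest for 25 and plate 3 the highest for 24. RPLP1 was the most abundant at 1362, 1446 and 1797 TPM, followed by RPS12 at 1111, 1389 and 1611. Translation factors were also lowest in plate 1 for 26 of 37 genes, among them EEF2, which moves the ribosome along the message, at 815, 913 and 987 TPM. Over all genes above 3 times background, plate 1 was the lowest for 23.8%.

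Glycolysis, the pathway by which Sertoli cells supply lactate to germ cells, was represented by 14 genes above 3 times background (10 by the second gauge) with a summed level of 3904 ± 495 TPM. GAPDH stood at 1305, 1535 and 1714 TPM, the pyruvate kinase PKM at 780.4, 899 and 1022, the enolase ENO1 at 486, 613 and 704, and the mutase PGAM1 at 286, 294 and 392, each lowest in plate 1 and highest in plate 3. This order was not that of the whole list, for which plate 1 was the lowest for 6 of 14 genes and the highest for 5, among them the phosphofructokinase PFKP at 23.3, 10.4 and 12.5 TPM. The lactate dehydrogenase LDHA was lower, at 82.5, 86.9 and 99.1 TPM. The glycolytic gene TPI1 was listed at 0 in all 3 libraries. All of its exon bases (100%) are shared with another listed gene in these files, so it was not measured.

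The defining markers of Sertoli cells were present in every plate. CLDN11, the claudin of the blood-testis barrier (chr13:117956576-117971437, 2152 bp of exon), was at 361, 321 and 313 TPM, a spread of 1.15 times between plates. INHA, the alpha subunit of inhibin, was at 380.2, 484 and 369.9 TPM. The transcription factors SOX9, which drives testis determination, and WT1, which maintains the Sertoli cell fate, were at 57.4, 92.5 and 63.8 TPM and at 68.2, 45.2 and 51.3 TPM, and FSHR, the receptor of follicle-stimulating hormone, was at 35.9, 20.6 and 17.8. Plate 2 was the highest for CLU, INHA and SOX9, and plate 1 for CLDN11, WT1 and FSHR, so the markers did not share 1 order. With TMM scaling CLDN11 was highest in plate 3.

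Of 22 genes on the Sertoli cell list, 13 were found on placed chromosomes, 12 passed the count minimum, 10 lay above 3 times background (7 by the second gauge) and 6 above 10 times. The 6 were CLU, INHA, CLDN11, SOX9, WT1 and FSHR. CYP26B1, which degrades retinoic acid, KRT18, DMRT1 and DHH, the desert hedgehog ligand, were above 3 times background at 20.02 ± 3.64, 15.3 ± 2.97, 11.6 ± 2.40 and 9.15 ± 3.65 TPM. GATM and transferrin (TF) were within 3 times the background in at least 1 plate, at 5.46 ± 0.346 and 4.44 ± 2.501 TPM, and NR0B1 had only 20, 8 and 11 counts. ETV5 is on a scaffold. AMH, INHBB, SOX8, KITLG, GDNF, SHBG, HSD17B1 and CST3 were not matched by symbol and were not analysed here.

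The blood-testis barrier list, which includes CLDN11, varied little in its sum, at 1156, 1119.9 and 1114 TPM. Of its 12 measured genes, 10 lay above 3 times background, and these did not share 1 order. Plate 1 was the highest for 5 of the 10, against 54.4% of all genes above that background, and the lowest for 2, against 23.8%. With TMM scaling plate 1 was the lowest for 9 of the 10, against 47.0%. The catenins CTNNB1 and CTNNA1, which tie cadherins to actin, were at 182 ± 14.9 and 164 ± 15.9 TPM, the gap junction protein GJA1 at 107 ± 13.4, N-cadherin (CDH2) at 79.2 ± 8.87, and the scaffold TJP1 at 71.2, 69.3 and 68.1. Occludin (OCLN), at 7.22, 4.54 and 6.04 TPM, was near the background.

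Markers of other testis cells were also present, and some stood above CLDN11. INSL3, the peptide hormone of Leydig cells (chr2:59499016-59500655, 765 bp), was at 1598, 1117 and 1311 TPM, rank 41 of the kept genes. Per length it was 4.43, 3.48 and 4.19 times as high as CLDN11 in the same plates. The other Leydig cell genes were lower than CLDN11. CYP17A1, an enzyme of androgen synthesis, was at 198, 144 and 139.9 TPM, the lipoprotein receptor SCARB1 at 169.9, 139 and 124, and CYB5A, an electron donor to CYP17A1, at 117, 122 and 141. LHCGR, the receptor of luteinizing hormone, was at 14.5, 10.2 and 13.8 TPM. All 5 measured Leydig cell genes lay above 3 times background, and 4, without LHCGR, above 3 times the second gauge, and STAR, HSD3B1 and CYP19A1 were not matched by symbol.

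Contractile genes were at a similar level. ACTA2, the smooth muscle actin of myoid cells (chr14:109852735-109871621, 1647 bp), was at 1202, 977 and 1593 TPM, rank 42, or 3.33, 3.04 and 5.09 times CLDN11. TAGLN, an actin-bundling protein of smooth muscle, was at 1073, 1161 and 1373 TPM. TPM2 was at 269.7 ± 32.5 TPM, ACTG2 at 254 ± 51.0, calponin (CNN1) at 61.3 ± 8.47 and desmin (DES) at 45.6 ± 8.01. All 9 measured genes of the myoid list were above 3 times background, and plate 2 was the lowest for 6 of them (35.7% over all genes above that background) and plate 3 the highest for 6 (24.9%). ACTA2, TAGLN and TPM2 are also made by other mesenchymal cells in culture, so the list is not particular to myoid cells.

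The interstitial fibroblast list had 10 of 10 measured genes above 3 times background, summing to 1211, 1314 and 1802 TPM. It was led by COL3A1 and COL1A2, given above, and by the proteoglycan decorin (DCN) at 101, 105 and 166 TPM. The receptor PDGFRA, at 62.6, 81.4 and 97.95 TPM, and the transcription factor NR2F2, at 35.9, 37.9 and 49.8, mark interstitial precursors. Plate 3 was the highest for 7 of the 10 genes (24.9% over all genes above 3 times background), including all 5 named in this paragraph.

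Endothelial cells and pericytes were represented at a lower level. PECAM1, a junction protein of endothelium (chr12:14660875-14717153, 4334 bp), was at 65.6, 41.4 and 70.3 TPM, or 0.182, 0.129 and 0.225 of CLDN11. Next came the adhesion molecule ESAM at 68.6, 37.9 and 58.4 TPM and EGFL7, an endothelial secreted factor, at 51.7, 36.1 and 74.3. The VEGF receptors KDR and FLT1 were at 50.7, 41.7 and 55.9 TPM and at 38.3, 24.1 and 30.5 TPM, and the angiopoietin receptor TIE1 at 28.0, 17.7 and 20.7. Of 9 measured endothelial genes, 8 lay above 3 times background, and plate 2 was the lowest for all 8. The pericyte list behaved alike, with plate 2 the lowest for 4 of 4 genes, among them the proteoglycan CSPG4 at 57.6, 37.1 and 48.4 TPM, MCAM at 53.2, 32.1 and 43.4, NOTCH3 at 24.8, 13.2 and 22.3, and the potassium channel subunit ABCC9 at 15.7, 7.10 and 11.9.

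Macrophage genes had a comparable order. CD68, a lysosomal glycoprotein of macrophages (chr12:55296985-55299524, 1305 bp), was at 32.2, 28.3 and 26.5 TPM, or 0.0892, 0.0882 and 0.0848 of CLDN11. The adaptor TYROBP was at 54.7, 24.2 and 61.0 TPM, LAPTM5 at 56.0, 27.8 and 58.3, the Fc receptor chain FCER1G at 29.5, 19.2 and 30.6, and the transcription factor SPI1 at 30.1, 19.2 and 24.0. Of 12 measured genes, 7 were above 3 times background (5 by the second gauge), against 68.4% and 39.4% of all kept genes, and plate 2 was the lowest for 6 of those 7, with CD68 the exception. LYZ (lysozyme), at 8.96, 3.96 and 13.6 TPM, CSF1R, at 6.25, 4.10 and 11.6, and PTPRC, the common leukocyte antigen, at 3.18, 2.43 and 3.31, were within 3 times background in at least 1 plate. For comparison, over all 10973 genes above 3 times background plate 2 was the lowest for 35.7%. In bulk RNA, fewer cells of a type and less RNA per cell cannot be told apart, so these orders are of transcripts and not of cell numbers.

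Germ cell genes were sparse. KIT, the receptor for stem cell factor, was the highest at 64.5, 94.4 and 85.0 TPM, and UCHL1, a ubiquitin hydrolase of gonocytes and spermatogonia, was at 38.9, 47.6 and 30.2. KIT is also made by Leydig cells and UCHL1 by neurons. Of the 14 measured genes, 7 lay above 3 times background (3 by the second gauge) and 2, KIT and UCHL1, above 10 times. Germ cell genes with a narrower range of expression were lower, with DND1 at 23.1, 18.5 and 18.7 TPM, ZBTB16 at 17.0, 9.05 and 5.37, NANOS2 at 10.9, 9.96 and 6.86, and DDX4 (VASA) at 7.499, 6.61 and 6.67, the last within 3 times background in plate 1.

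**Figure D3:**
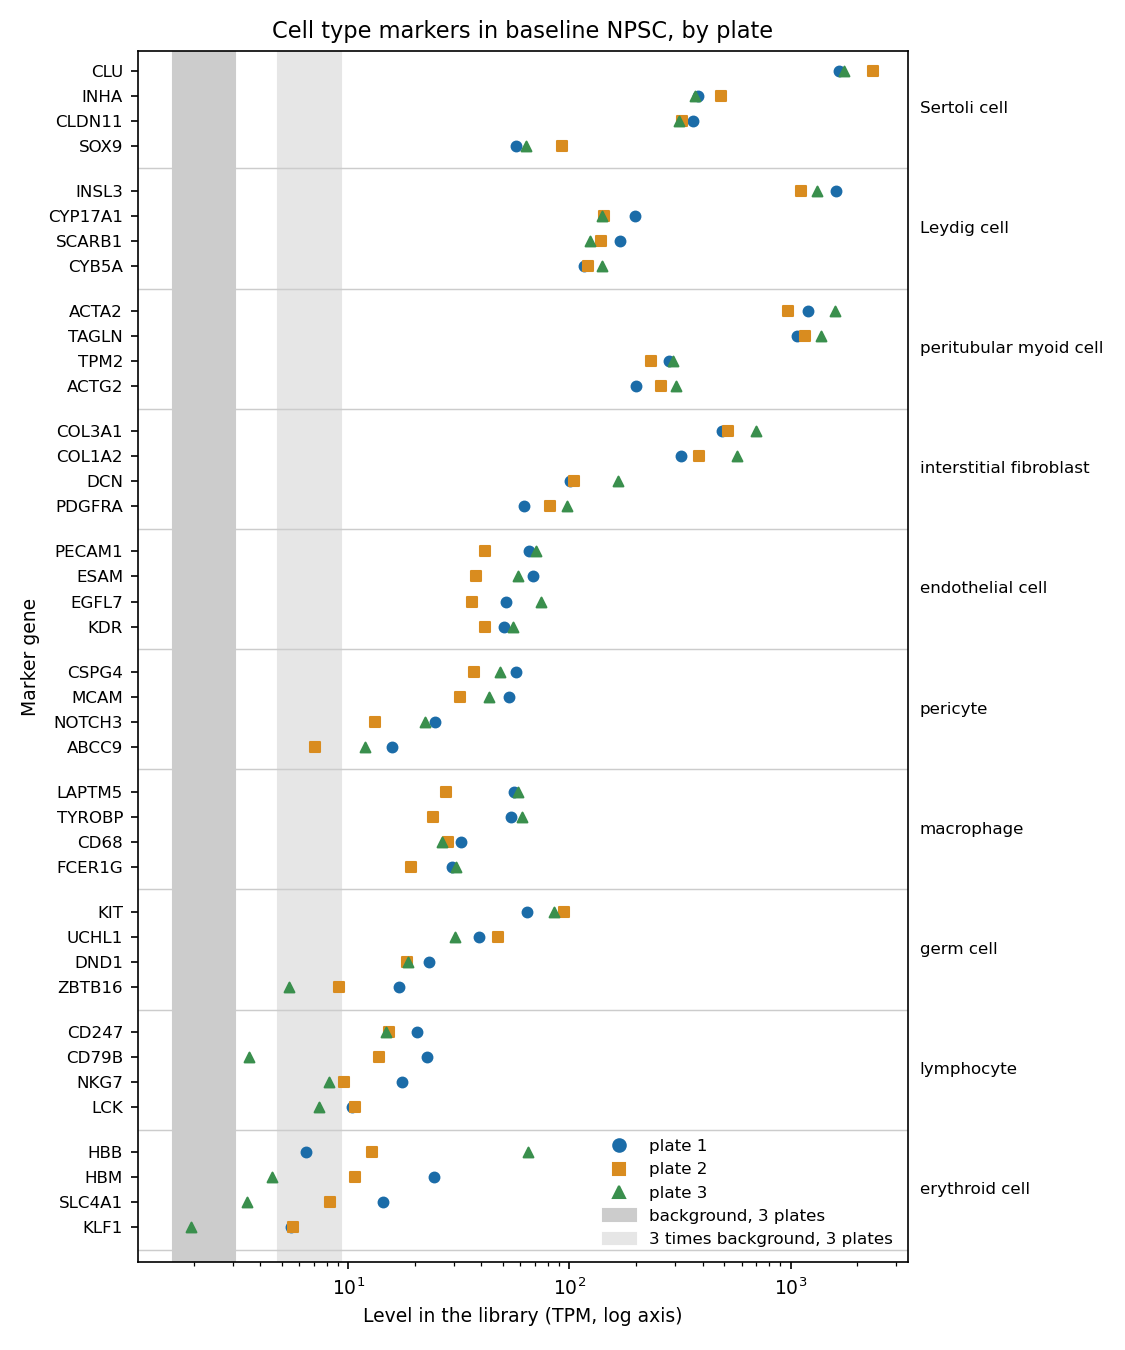
TPM (log axis) of the 4 most abundant measured genes of 10 cell type lists, with a point for each of 3 plates. The grey bands span the olfactory receptor background of the 3 plates and 3 times that background. CLU, INSL3, ACTA2 and TAGLN lie near or above 1000 TPM, endothelial, pericyte and macrophage genes lie lower but mostly to the right of the bands, and most lymphocyte and erythroid genes lie near the bands, with HBB in plate 3, at 65.0 TPM, an exception.

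The erythroid list had 0 of 5 genes above 3 times background in every plate. HBB, the beta-globin gene, was at 6.41, 12.8 and 65.0 TPM, or 2.08, 7.75 and 40.5 times background, so it was 10.1 times as high in plate 3 as in plate 1. HBM (24.3, 10.7 and 4.51) and the red cell anion exchanger SLC4A1 (14.3, 8.23 and 3.48) had the opposite order, and KLF1 was at 5.54, 5.65 and 1.94. ALAS2, at 1.62, 2.39 and 2.77, rose from plate 1 to plate 3 as HBB did, but lay within 3 times background in every plate. Of 10 lymphocyte genes, 3 (CD247, NKG7 and LCK) were above 3 times background in every plate, with CD247 at 20.5, 15.3 and 14.8 TPM, and 0 were by the second gauge. CD79B, a part of the B cell receptor, was at 22.7, 13.8 and 3.57 TPM, and CD3D, a part of the T cell receptor complex, was at 3.34, 4.17 and 2.68 TPM. On the Schwann cell and neuron list, TUBB3 at 16.4 ± 5.72 TPM and GFAP at 7.86 ± 2.81 were above 3 times background in every plate, TUBB3 alone also by the second gauge. The mast cell and granulocyte list had 1 of 2 (MPO, 9.29 ± 4.11 TPM, not by the second gauge, and not S100A8, 5.59 ± 0.772) and the rete testis list 1 of 2 (PAX2, 14.7 ± 6.13 TPM, but not EPCAM, 2.43 ± 0.771). MPO, PAX2 and SLC4A1 were each highest in plate 1, the plate with the highest background, and the part of the background in these values was not tested.

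Hormone and growth factor receptors spanned a wide range. Of 18 measured hormone and growth factor receptors, 15 were above 3 times background. TGFBR2, a TGF-beta receptor, was at 83.1, 80.8 and 73.4 TPM, the retinoic acid receptor RARA at 61.7, 55.3 and 73.2, and FGFR1 at 56.5, 39.7 and 46.5. The glucocorticoid receptor NR3C1 differed little between plates, at 21.4, 21.3 and 20.7. AMHR2, the receptor of anti-Müllerian hormone, was at 15.5, 12.1 and 11.2. The estrogen receptors ESR1, at 3.98, 2.95 and 2.24 TPM, and ESR2, at 6.77, 3.10 and 2.21, lay within 3 times background.

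The paracrine factor list, which holds neither CLU nor INSL3, was led by matricellular and chemokine genes. CCN2 (connective tissue growth factor) was at 1257, 735 and 649 TPM and CCN1 at 1006, 831 and 576, both highest in plate 1. CCL2, a chemokine that attracts monocytes, was at 606, 459.6 and 527 TPM in cells that had met no human serum. Of 13 measured paracrine genes 12 were above 3 times background, and plate 1 was the highest for 11, against 54.4% of all genes above that background. With TMM scaling it was the highest for 6, against 31.3%. The others included the Notch ligand JAG1 at 63.1 ± 7.95 TPM, TGFB2 at 59.6 ± 12.3, PDGFA at 45.0 ± 4.79, VEGFA at 31.7 ± 7.64 and BMP4 at 15.4 ± 2.60.

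Of 10 listed regulators of complement, 6 were measured and 3 lay above 3 times background. Besides CLU these were SERPING1, the inhibitor of the C1 complex, at 105, 102 and 123 TPM, and SUSD4 at 37.9, 26.4 and 16.8. CFI, at 5.08, 3.78 and 4.81, and C4BPA, at 3.01, 2.76 and 2.85, were near the background, and VTN had 5, 12 and 0 counts.

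Stress and immediate early genes were present at baseline. All 13 measured genes were above 3 times background, with the chaperones HSPA5 at 735, 1139 and 959 TPM, HSP90AA1 at 381, 562 and 541 and HSP90AB1 at 272, 318 and 331. Plate 2 was the highest for 8 of the 13 (20.8% over all genes above 3 times background), including FOS at 67.1, 131 and 69.4 TPM, IER2 at 120.3, 163 and 106 and ATF3 at 34.7, 61.2 and 36.5. IER3 and EGR1 had another order and were highest in plate 1, at 333, 221 and 197 TPM and 91.6, 65.0 and 49.7 TPM. The measured proliferation genes had a median of 23.6 TPM, against 13.9 for the median kept gene. Their sum varied little between plates, at 174, 181 and 188 TPM, while BUB1 was at 10.9, 13.5 and 8.60. MKI67, PCNA, AURKA, TYMS, RRM2 and CCNA2 were not matched by symbol. All 7 measured lay above 3 times background (4 by the second gauge), among them the replication licensing factor MCM2 at 45.0 ± 2.40 TPM, its partner MCM3 at 32.6 ± 2.47, the cyclin CCNB1 at 23.6 ± 2.42, the topoisomerase TOP2A at 30.04 ± 3.30 and the mitotic kinase CDK1 at 19.3 ± 1.56.

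**Figure D4:**
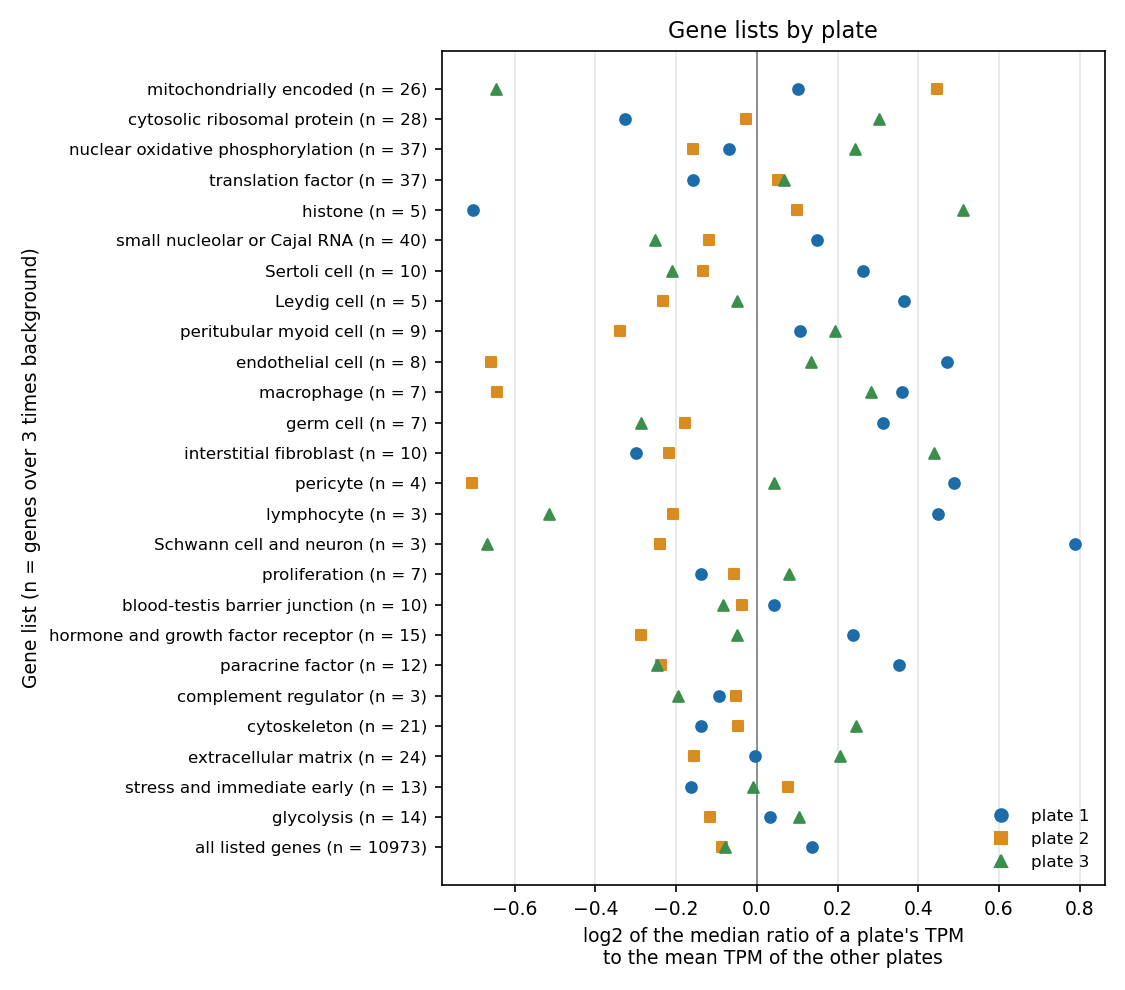
For each gene list with 3 or more genes above 3 times background (n beside its name), the median over genes of the ratio of 1 plate to the mean of the other plates, on a log2 scale, with a point for each plate. Plate 2 lies farthest to the left for endothelial, pericyte and macrophage genes, plate 3 for mitochondrially encoded genes, and plate 1 for ribosomal protein and histone genes, while all 10973 genes together have median ratios of 1.10, 0.942 and 0.947.

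The spread between plates was measured as the ratio of the highest to the lowest TPM of a gene and as its coefficient of variation (CV, the SD divided by the mean). The median ratio was 1.40 and the median CV was 17.6%, against a median of 8.62% that Poisson counting error alone would give. The common biological coefficient of variation of edgeR, the spread between libraries left after counting error, was 0.214. It was 0.247 with the expected background subtracted, 0.155 without plate 1, 0.267 without plate 2 and 0.197 without plate 3. Across genes, which are not independent replicates, the Pearson correlation of log2(TPM + 1) was 0.963 between plates 1 and 2, 0.948 between plates 1 and 3 and 0.974 between plates 2 and 3. Plate 1 correlated less with both of the others than they did with each other.

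A ratio of 2 or more was found in 3090 genes (19.2%), and plate 1 was the highest in 2745 of them, plate 2 in 210 and plate 3 in 135. With TMM scaling the number was 2228 (13.9%), of which plate 1 was the highest in 73.8% in place of 88.8%, and with DESeq2 size factors it was 2266 (14.1%), of which plate 1 was the highest in 75.4%. Most of them, 1257 and 1604 of the 3090, had mean counts under 3 or from 3 to 10 times the expected background. With the expected background subtracted from the counts, 2680 of 13726 genes (19.5%) differed 2-fold or more, nearly the same share as without. Fewer genes keep 10 or more counts after subtraction, so these shares are not of the same genes. The part of the background in the 2-fold genes was not tested. Of genes with a mean count under 3 times the expected background 37.5% differed 2-fold or more, of those from 3 to 10 times 25.01%, from 10 to 30 times 3.59%, and at 30 times or more 3.77%. With 100 or more counts in every library the number was 416 of 8531 (4.88%), and above 10 times background in every library it was 159 of 4254 (3.74%). Without plate 1, only 743 genes (4.58%) differed 2-fold or more between plates 2 and 3. In the lowest class the median ratio of plate 1 to the other plates was 1.46, and in the highest class it was 0.947.

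**Figure D5:**
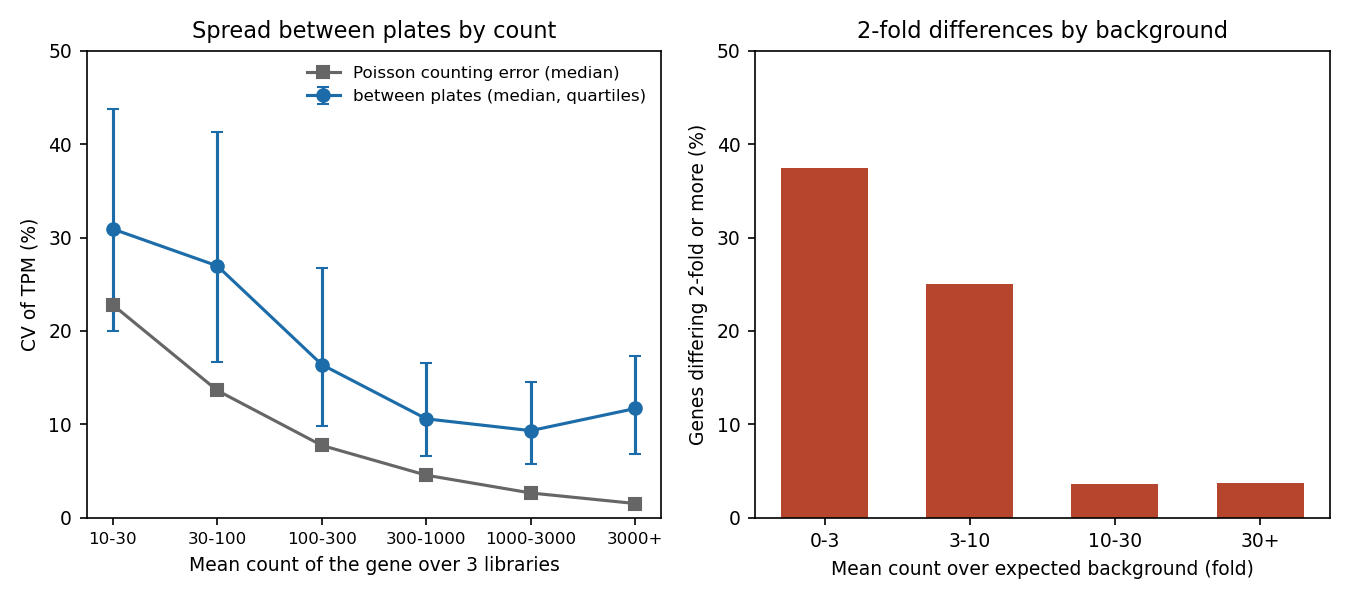
Left, median and quartiles of the CV of TPM between 3 plates (%) by the mean count of the gene, with the CV that Poisson counting error gives. Right, the share of genes (%) that differed 2-fold or more between plates by how many times the mean count exceeded the expected background. The CV falls from 30.9% at 10 to 30 counts to 9.33% at 1000 to 3000 counts and stays above the counting error throughout, and the share of 2-fold genes drops from 37.5% to under 4% above 10 times background.

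Among named genes with a mean of 5 TPM or more and 100 or more counts in every plate, the 8 largest ratios were those of CCDC88B, SCN4A, CDC42BPG, CHD5, CACNA1I, ADARB2, MAP4K2 and HMCN2, from 4.69 down to 4.14. All 8 were highest in plate 1 and lowest in plate 3, and all lay under 3 times background in at least 1 plate. CCDC88B, for example, was at 17.7, 7.93 and 3.78 TPM. SCN4A, a sodium channel of skeletal muscle, at 14.8, 6.79 and 3.29, and CACNA1I, a neuronal calcium channel, at 19.9, 9.23 and 4.58, had the same order. The density of the olfactory receptor genes had its highest value in the same plate, at 3.08 TPM against 1.61 in plate 3, and its part in these ratios was not tested.

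Genes well above the background that differed between plates were then taken by a rule added after these values were seen, with counts above 10 times background in every plate. ARRDC3, an arrestin-related regulator, stood first at 54.8, 203 and 108 TPM, highest in plate 2 by a ratio of 3.70. H1-3, a linker histone, was at 123, 369 and 451 TPM, lowest in plate 1 by a ratio of 3.67. The next 4 were lowest in plate 2. CD93, a receptor of endothelial and myeloid cells, was at 51.0, 17.4 and 53.0 TPM, DHRS3, which reduces retinal, at 64.9, 23.4 and 47.5, SULF2, which trims heparan sulfate, at 67.4, 25.2 and 28.4, and the cadherin CDH3 at 52.2, 20.1 and 22.5. MXRA8, at 60.1, 25.3 and 34.0 TPM, EPAS1, a hypoxia-inducible factor, at 183, 77.9 and 165, and GNG11, at 33.9, 17.0 and 39.6, had their lowest value there too. RNF19B was highest in plate 2 at 54.6, 133 and 83.6 TPM, as was BICDL2 at 31.4, 48.4 and 21.4, and SNORA57 was highest in plate 1 at 395, 209 and 169.5.

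Under the same minimum of 100 counts, the genes with the largest ratio of a plate to the mean of the others were taken. Each plate has leading genes by that rule. Plate 2 was highest for ARRDC3, for COL9A1 at 10.2, 26.7 and 8.78 TPM, for aggrecan (ACAN) at 16.2, 31.4 and 8.996, for COL11A1 at 7.57, 19.6 and 8.25, and for HOMER1 at 9.03, 21.2 and 10.6, and of these COL11A1, HOMER1, COL9A1 and ACAN lay from 2.46 to 5.25 times background in their lowest plate. Plate 3 was highest for H1-3, for the matrix protease MMP9 at 68.2, 74.0 and 129.8 TPM, for CAVIN3, a component of caveolae, at 51.1, 58.9 and 97.8, for COL15A1 at 70.1, 77.8 and 127, and for EGFL7. In plate 1 the leaders were CHD5, CDC42BPG, IFT140, CCDC88B and ADARB2, each from 1.96 to 3.48 times background in its lowest plate.

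At the other end, some genes were the same in all 3 plates to within their counting error. CSTF1, a factor of messenger RNA 3′ end cleavage, was at 27.3 TPM in each plate. LRRC41 was at 38.5, 38.5 and 38.6 TPM, GUF1 at 14.5, 14.6 and 14.5, LYAR at 33.4, 33.4 and 33.5, and the helicase DDX49 at 52.8, 52.8 and 52.5. These 5 genes had 206 to 1071 counts a library and were chosen for their even level.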

How the data were processed

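The authors deposited 1 file a library of raw counts per gene, not normalized, beside each gene's exon length in bp. The submitters' processing notes name Trimmomatic 0.36, STAR 2.5.2b and featureCounts of Subread 1.5.2. The methods describe poly(A) selection and rRNA depletion among the library kinds of the sequencing service without saying which was used, and the genome build and strand setting are not given in the sources used here, so antisense pairs cannot be told apart. TPM, means and SDs were computed from the counts of the 3 baseline libraries with pandas 2.3.3 in Python 3.11.15. The expected background of a gene was its exon length times the count density of 47 olfactory receptor genes. The biological coefficient of variation was taken from edgeR 4.0.16 with TMM scaling and an intercept-only design, and size factors from DESeq2 1.42.0. The estimate was tested on simulated data. Symbols were matched to 11804 of 25149 identifiers. There was 1 group, so no test was made. The precision of a low gene is set by its counts, given as a Poisson CV.

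The genes named were the 30 with the highest mean TPM, the 4 most abundant of each cell type or function list with CLDN11, INSL3, ACTA2, PECAM1 and CD68, and the genes with the largest, smallest or plate-led ratios among those with a symbol, 5 TPM and 100 counts. By a rule added after the values were seen, the largest ratios were also taken above 10 times background. Some genes that this rule selects are not reported here. List members beyond the first 4 were named for their known roles after their values were seen. The members and lists were chosen with earlier results of these data known. Alternatives were other count minimums, scalings, background gauges and leaving out each plate. The complement libraries were not used, and no sequence is printed.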

Additional observations from a re-analysis of the deposited data

How the results depend on the processing

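The number of kept genes was 13048 to 19854 under the other count minimums, 10973 when 3 times the background was also required, and 16222 to 16470 with 1 plate left out. The share of TPM in the first 30 genes was 42.8% without mitochondrial genes in the total, 21.4% by CPM, 47.7% with the expected background subtracted and, in a setting added after the data were seen, 21.2% without genes under 400 bp. It was 45.0% to 46.6% with 1 plate left out. The number of genes that differed 2-fold or more was 1633 with a minimum of 30 counts, 416 with 100 counts and 159 above 10 times background (added after the data were seen), and 743 to 2591 with 1 plate left out, the lowest without plate 1 and 1339 without plate 3. The biological coefficient of variation ranged from 0.155 to 0.267 with 1 plate left out. The number of Sertoli cell markers was 6 above 10 times background, and 7 with the other silent genes as the gauge. In settings added after the data were seen, that gauge left 9 of 9 peritubular myoid, 9 of 10 fibroblast, 7 of 8 endothelial, 3 of 4 pericyte, 12 of 15 receptor, 10 of 12 paracrine, 20 of 21 cytoskeleton, 23 of 24 matrix, 9 of 10 barrier and 13 of 13 stress genes above 3 times background, with the first number from the gauge and the second from the olfactory receptors. With TMM scaling plate 2 was still the lowest for 8 of 8 endothelial, 4 of 4 pericyte and 6 of 7 macrophage genes against 27.3% of all genes and plate 3 for 21 of 26 mitochondrial genes against 25.8%, plate 1 was the lowest for 26 of 28 ribosomal protein and 32 of 37 translation factor genes against 47.0% of all genes, and plate 3 was the highest for 20 of 21 cytoskeleton, 20 of 24 matrix, 8 of 10 fibroblast and 31 of 37 nuclear oxidative phosphorylation genes against 42.2%. Leaving mitochondrial genes out of the total put CLDN11 at 366 TPM, CD68 at 32.0 and the germ cell list at 244, and subtracting the background put that list at 200.1, shifts larger than the SD between plates. No paired analysis was possible because the values come from 1 group and from no test.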

Other observations

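The histone genes with a symbol, which encode the proteins that package DNA, summed to 397, 729.7 and 861 TPM over plates 1, 2 and 3, and plate 1 was the lowest for all 5 that lay above 3 times background (23.8% over all genes above it). H1-3 made up 123, 369 and 451 TPM of that sum. Of 57 placed genes named as small nucleolar or Cajal body RNAs, which guide the modification of other RNAs, 40 passed the count minimum, and all 40 lay above 3 times background. Plate 1 was the highest for 19 of them, against 54.4% of all genes above 3 times background, and plate 3 the lowest for 23, against 40.5%, or 14 against 31.3% and 18 against 25.8% with TMM scaling. The most abundant was SNORA53 at 1438, 1081 and 967 TPM, and SNORA57 was at 395, 209 and 169.5 TPM. These gene models are short, and SNORA57 rested on 159 to 286 counts a library and SNORA53 on 1421 to 1732.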
